A study of Mus musculus with 6 samples.

Results

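Respiratory complex I (NADH:ubiquinone oxidoreductase) was described in the adult mouse cerebellum through its genes, nuclear and mitochondrial. Members were the protein-coding genes of the count table with a symbol starting in Nduf or mt-Nd and a mean of at least 1 CPM (counts relative to the scaled library size). Of 55 such symbols 54 were kept among 56748 genes in the table: 39 nuclear subunit genes, 8 assembly factor genes (Ndufaf) and 7 mitochondrially encoded genes (mt-Nd). Ndufb11b had a count of 0 in every library and was left out. Libraries came from 3 cerebella of C57BL/6J offspring of dams given 0.2 ppm methylmercury (MeHg) in the drinking water from embryonic day 0 to birth, and from 3 cerebella of offspring of dams given 0 ppm (Control). All 6 mice were killed at 90 to 120 days of age, and the offspring were exposed only through the dam. No dam or litter is labelled, and the p-values therefore reflect only how far these 6 samples lie apart, which may in part be technical.

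Complex I is the entry point of the respiratory chain: it takes electrons from NADH, passes them along a row of iron-sulfur clusters to ubiquinone and pumps protons out of the mitochondrial matrix. Its matrix arm carries the flavin and the clusters and is encoded in the nucleus, while the proton-pumping core of its membrane arm is encoded by mitochondrial DNA. Accessory subunits, all nuclear, surround this core, and assembly factors build the enzyme but are not part of it. In the cerebellum the dense granule neurons and the large, steadily firing Purkinje neurons depend on the respiratory chain for ATP.

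Total counts were 14116088 to 20303833 per library. The granule cell marker Gabra6 was abundant in every library but called lower in MeHg cerebella, at 494.6 ± 61.6 CPM against 738 ± 55.6 CPM in Control cerebella (SD, n = 3 each; log2 fold change -0.58, edgeR adjusted p = 0.0431). In all, 3 libraries stood apart. Control library 2 is labelled female but had 0.249 CPM of Xist and 87.2 CPM of the Y-linked gene Ddx3y, the pattern of the libraries labelled male. Those are MeHg library 2 and Control library 3, and the other libraries are labelled female. By Xist and Ddx3y, sex was therefore not balanced between the groups. MeHg library 3 had the most choroid plexus RNA, with 6381 CPM of the thyroid hormone carrier Ttr, against 4.60 CPM in Control library 3. MeHg library 2 alone had much of the serotonin neuron gene Tph2, at 67.5 CPM, a gene of the brainstem. In bulk tissue, fewer cells of a type and less RNA per cell cannot be told apart. The Gabra6 call was lost when MeHg library 3, Control library 1 or Control library 3 was left out, as those fits called 0 of all genes. The fit without MeHg library 1 called only 2 of 17081 genes.

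No complex I gene passed the threshold of an adjusted p under 0.05 in the edgeR quasi-likelihood test over 16859 genes, whereas 2.36% of all genes tested did, 0.575% higher and 1.79% lower in MeHg cerebella. The direction of the values was nevertheless mostly one way: 50 of the 54 genes had a positive log2 fold change, MeHg over Control, against 51.1% of all genes. The unadjusted p was under 0.05 for 22 members with a positive and 1 with a negative fold change. Over all genes 11.8% were higher and 12.7% lower at that level. In 25 of the 54 genes (46.3%) all 3 MeHg values lay above all 3 Control values, against 13.9% of all genes, and in 1 all MeHg values lay below, against 15.5% of all genes. The limma-voom test also called 0 members, and the DESeq2 test called 5, all higher in MeHg: Ndufa8, Ndufc1, Ndufb10, Ndufb7 and mt-Nd1. Those 5 were 9.26% of the members, near the 7.86% of all genes that DESeq2 called. The members at an unadjusted p under 0.05, 23 in all, were 42.6% of the 54, against 24.5% of all genes. Without MeHg library 3 they were 14 (25.9%, against 17.9% of all genes), and without Control library 3 also 14 (25.9%, against 14.9%). They were 35 without both libraries numbered 2 (64.8%, against 28% of all genes) and 11 with a gene length offset (20.4%, against 21.3%). Leaving out MeHg library 2 alone gave 6 called members (11.1%), among them Ndufs7, Ndufb10, Ndufa8 and Ndufb7, in a fit that called 6.33% of all genes. Leaving out MeHg library 3, Control library 1 or Control library 3 gave 0 calls among all genes. Leaving out MeHg library 1 gave 2 calls (0.0117% of all genes), with 0 among the complex I genes.

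The nuclear subunits carried most of this pattern. Of 39 genes, 37 had a positive fold change, and 22 (56.4%) had all MeHg values above all Control values, against 13.9% of all genes. The median log2 fold change was 0.19, against 0.0062 over all genes. Single genes lay between -0.24 and 0.98. As a mean log2 CPM over the 39 genes, the MeHg libraries stood at 5.91, 5.87 and 6.04, against 5.77, 5.73 and 5.72 in Control libraries. The groups did not overlap, and MeHg library 3 was the highest: it held the highest value of 28 of the 39 genes, while Control libraries 2 and 3 each held the lowest value of 14. The median was 0.14 without MeHg library 3 and 0.25 without MeHg library 2. The 39 genes together took 0.295%, 0.283% and 0.324% of all counts in MeHg libraries, against 0.264%, 0.26% and 0.259% in Control libraries.

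By place in the enzyme, the 20 accessory subunits of the membrane arm had a median of 0.25, with 19 positive. In 13 (65%) all MeHg values lay above Control, against 13.9% of all genes. The 9 accessory subunits of the matrix arm had a median of 0.17, with all 9 positive and 4 without overlap, and the 7 core subunits of the matrix arm a median of 0.15, with 6 positive and 3 without overlap. Ndufab1, the acyl carrier protein that sits in both arms, had a log2 fold change of 0.04. The differences between these groups of genes were not tested.

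**Figure D1:**
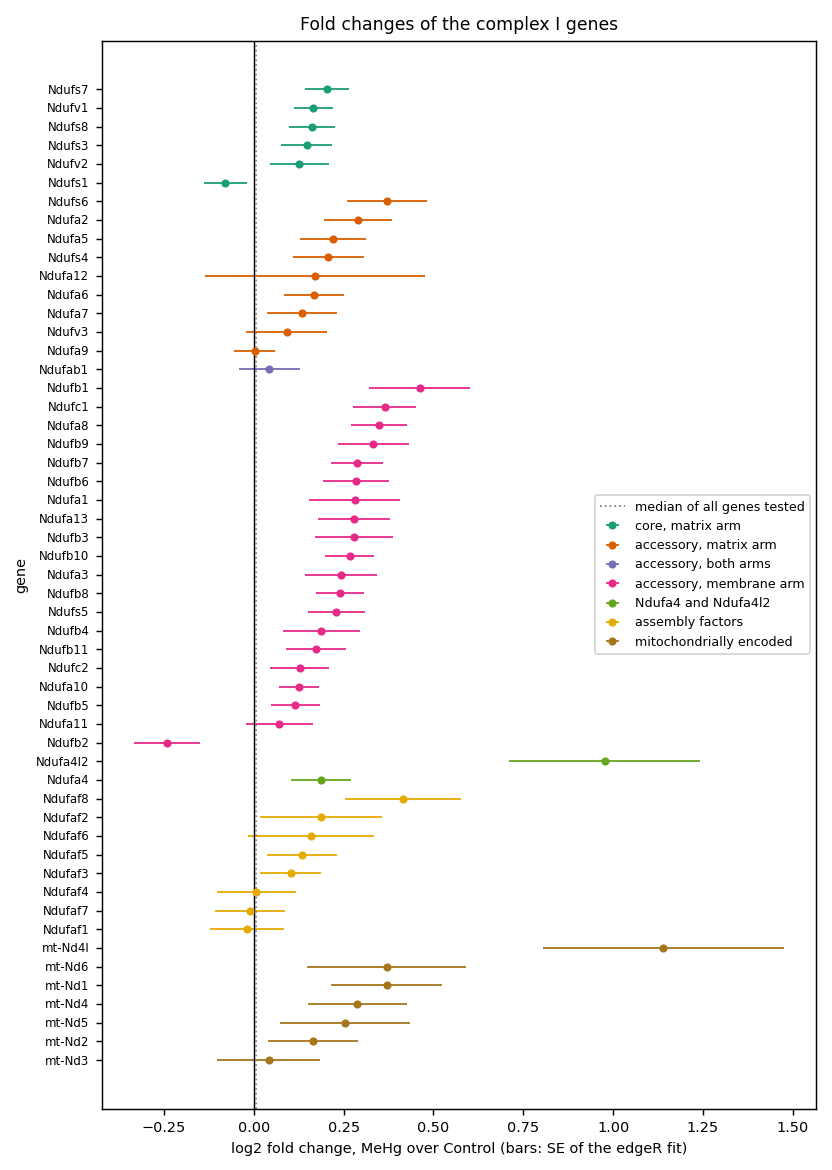
Each point is the log2 fold change, MeHg over Control, of 1 complex I gene, with the SE of the edgeR fit as a bar, coloured by the place of its product. The dotted line is the median of all genes tested. Most points lie to the right of 0, with mt-Nd4l (1.14) and Ndufa4l2 (0.98) farthest out and Ndufb2 (-0.24) lowest, and no gene passed the threshold.

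Ndufa8 (chr2:35926338-35939418 in mm39, minus strand), an accessory subunit on the intermembrane space face of the membrane arm with paired cysteine motifs, had the smallest p of the nuclear members. It had 73.6, 82.8 and 85.9 CPM in MeHg cerebella, against 65.7, 60.1 and 64.6 CPM in Control cerebella. All MeHg values lay above all Control values, with a log2 fold change of 0.35 ± 0.077 (SE) and an edgeR adjusted p of 0.0524. Ndufc1 (chr3:51312098-51316409, minus strand), a small membrane-spanning accessory subunit, had 32.8, 34.6 and 34.2 CPM in MeHg cerebella, against 27.0, 27.6 and 24.3 CPM in Control cerebella. Its groups did not overlap (log2 fold change 0.36 ± 0.087, edgeR adjusted p = 0.0606).

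Several Ndufb genes, whose products form the far end of the membrane arm, had the same pattern. Ndufb10 (chr17:24941034-24943452, minus strand) had 107, 102 and 118 CPM in MeHg cerebella, against 92.7, 88.8 and 90.6 CPM in Control cerebella. Ndufb7 (chr8:84293300-84298255, plus strand), like Ndufb10 a subunit with paired cysteine motifs, had 60.4, 58.2 and 65.8 CPM in MeHg cerebella, against 51.7, 49.985 and 49.4 CPM in Control cerebella. Neither gene's groups overlapped, and the edgeR adjusted p was 0.067 for Ndufb10 and 0.0675 for Ndufb7, at log2 fold changes of 0.27 ± 0.068 and 0.29 ± 0.073 (SE). Ndufb8 (chr19:44537011-44543879, minus strand), a single-pass subunit, had 78.0, 79.4 and 72.8 CPM in MeHg cerebella, against 67.8, 63.0 and 64.2 CPM in Control cerebella. Ndufb9 (chr15:58805605-58811337, plus strand), a subunit of the LYR family that holds an acyl carrier protein, had 41.3, 45.2 and 49.7 CPM in MeHg cerebella, against 32.7, 38.6 and 36.9 CPM in Control cerebella. Again the MeHg values of each lay above every Control value, with log2 fold changes of 0.24 for Ndufb8 (edgeR adjusted p = 0.082) and 0.33 for Ndufb9 (0.0939).

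Apart from Ndufa4l2, the highest fold changes among the nuclear subunits were those of Ndufb1 and Ndufs6. Ndufb1 (chr12:101934349-101943327, minus strand), a very small membrane subunit, had 11.7, 15.0 and 15.6 CPM in MeHg cerebella, against 10.4, 10.3 and 10.1 CPM in Control cerebella. Its Control values were tightly grouped and lay below the lowest MeHg value, that of library 1 (log2 fold change 0.46 ± 0.14, edgeR adjusted p = 0.0966). Ndufs6 (chr13:73467957-73476661, minus strand) encodes a zinc-binding accessory subunit at the joint where the NADH-binding module is attached to the rest of the matrix arm. It had 33.3, 38.6 and 44.8 CPM in MeHg cerebella, against 30.8, 29.9 and 29.4 CPM in Control cerebella. The MeHg values spread more widely than the Control values and did not overlap them (log2 fold change 0.37 ± 0.11, edgeR adjusted p = 0.096).

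The opposite order was seen in Ndufb2 (chr6:39569508-39580316, plus strand), a small membrane subunit with 35.4, 31.8 and 32.4 CPM in MeHg cerebella, against 41.4, 35.7 and 40.6 CPM in Control cerebella. It was the single complex I gene with all MeHg values below all Control values (log2 fold change -0.24 ± 0.091, unadjusted p = 0.0263, edgeR adjusted p = 0.153). Parts of its longest transcript (5419 bases) have 13 matches of at least 150 bases elsewhere in the genome, so reads may be shared with them. The longest match spans 444 bases at 98.6% identity. By the same count Ndufc1 has 467 matches and Ndufv3 4023. Ndufa9 (chr6:126798684-126826099, minus strand), a nucleotide-binding subunit beside the ubiquinone pocket, had 96.0, 92.9 and 97.5 CPM in MeHg cerebella, against 92.8, 97.8 and 95.3 CPM in Control cerebella. These groups overlapped fully, the log2 fold change was 0.0023 ± 0.057, and its sign turned under 8 of the alternatives tried.

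The 7 nuclear core subunits follow the path of the electrons. Ndufv1 (chr19:4057384-4062806, minus strand), which binds NADH and the flavin, had 172, 183 and 177 CPM in MeHg cerebella, against 157, 157 and 161 CPM in Control cerebella. Its groups did not overlap (log2 fold change 0.17 ± 0.054, edgeR adjusted p = 0.116). Ndufv2 (chr17:66385633-66408554, minus strand), which holds an iron-sulfur cluster beside it, had 106, 121 and 132 CPM in MeHg cerebella, against 108, 113 and 108 CPM in Control cerebella, with overlap. Ndufs1 (chr1:63182755-63215992, minus strand), the core subunit with the most clusters, had 150.0, 140.1 and 147 CPM in MeHg cerebella, against 149, 162 and 151 CPM in Control cerebella. It was the core subunit with a negative log2 fold change, -0.08 ± 0.059, and its groups overlapped. Ndufs8 (chr19:3958863-3962774, minus strand), the next cluster carrier, had 73.3, 69.7 and 73.9 CPM in MeHg cerebella, against 66.3, 65.6 and 62.0 CPM in Control cerebella. Its groups did not overlap, at a log2 fold change of 0.16 ± 0.064 (edgeR adjusted p = 0.168).

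Ndufs7 (chr10:80084955-80092628, plus strand) encodes the subunit whose cluster hands electrons to ubiquinone. It had 126, 115 and 126 CPM in MeHg cerebella, against 109, 105 and 104 CPM in Control cerebella, and had the smallest p of the nuclear core subunits. The groups did not overlap (log2 fold change 0.20 ± 0.061, edgeR adjusted p = 0.0961). Ndufs3 (chr2:90724978-90735171, minus strand), a core subunit with no cluster, had 92.9, 86.9 and 98.1 CPM in MeHg cerebella, against 78.8, 87.1 and 85.1 CPM in Control cerebella. Its groups overlapped, with a log2 fold change of 0.15 ± 0.070 (edgeR adjusted p = 0.235). Of the core, the subunits without overlap were Ndufv1, Ndufs7 and Ndufs8, while Ndufv2, Ndufs1 and Ndufs3 overlapped.

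Levels can be compared between genes per length, as the authors' FPKM. Among nuclear members Ndufa4 was highest, at 114.8 ± 14.5 FPKM in MeHg cerebella and 101 ± 2.42 FPKM in Control cerebella (SD, n = 3 each). Ndufa4l2 was lowest, at a mean of 1.90 FPKM in MeHg cerebella and 0.973 FPKM in Control cerebella. FPKM used the authors' gene length, which for some small subunits is long: 4522 bases for Ndufb7 and 6883 bases for Ndufab1, which lowers their FPKM where most reads come from a shorter transcript.

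Promoters of the subunit genes were examined for binding motifs of factors known to control nuclear respiratory genes. RefSeq promoters (250 bases before to 50 after the start, build GRCm38.p6) were matched for 34 of the 39 nuclear subunits and 7 of the 8 assembly factors. Genes were counted, and a gene with several promoter windows counted once, as a match if any window held the motif. The motif of nuclear respiratory factor 1 (NRF1) was searched like the others on both strands and is seen in capitals in the sequences shown here. It was found for 7 of the 34 subunit genes (20.6%), against 5.2% of 27025 genes. The YY1 motif AAGATGGCG was in 5 (14.7%), against 1.6% of all. The ETS motif CCGGAAG, read by GABP, was in 4 (11.8%), against 9.9%, and the estrogen-related receptor motif TCAAGGTCA in 0, against 0.5%. Among the 7 assembly factor genes 2 held the NRF1, 2 the ETS and 1 the YY1 motif. A match describes the letters of the window and is not a bound site. The promoters of Ndufa8 (chr2:36049289-36049588 in GRCm38.p6, minus strand), Ndufc1 (chr3:51408906-51409205, minus strand) and Ndufs6 (chr13:73328433-73328732, minus strand) are shown because these genes are among the subunits with the smallest p and hold these motifs. Of other accessory subunits with a small p, Ndufb7 held the ETS motif, while Ndufb10, Ndufb8 and Ndufb1 held none of these motifs. Ndufa9, at a log2 fold change of 0.0023, held the YY1 motif. Whether motif and fold change go together was not tested. Capitals mark the NRF1 motif in Ndufa8, the YY1 motif in Ndufc1, and both in Ndufs6, where NRF1 comes first.
Ndufa8 promoter: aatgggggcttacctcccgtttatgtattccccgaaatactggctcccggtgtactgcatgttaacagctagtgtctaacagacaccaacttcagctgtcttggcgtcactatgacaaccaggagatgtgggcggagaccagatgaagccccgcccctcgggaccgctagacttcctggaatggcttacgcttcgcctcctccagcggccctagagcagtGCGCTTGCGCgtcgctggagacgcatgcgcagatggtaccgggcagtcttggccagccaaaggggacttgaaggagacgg
Ndufc1 promoter: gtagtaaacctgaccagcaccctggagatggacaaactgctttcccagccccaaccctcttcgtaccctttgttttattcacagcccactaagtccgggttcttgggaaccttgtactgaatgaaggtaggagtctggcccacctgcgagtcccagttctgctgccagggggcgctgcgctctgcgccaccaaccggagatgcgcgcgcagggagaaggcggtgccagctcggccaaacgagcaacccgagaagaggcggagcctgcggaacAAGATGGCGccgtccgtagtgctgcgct
Ndufs6 promoter: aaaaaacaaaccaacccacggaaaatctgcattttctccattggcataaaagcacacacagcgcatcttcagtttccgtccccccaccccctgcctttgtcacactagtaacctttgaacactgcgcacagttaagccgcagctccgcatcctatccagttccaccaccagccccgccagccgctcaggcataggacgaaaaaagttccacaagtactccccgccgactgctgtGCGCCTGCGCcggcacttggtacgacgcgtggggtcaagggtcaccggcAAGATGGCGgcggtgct

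Ndufa4 and Ndufa4l2 bear the family name but their products belong with complex IV (cytochrome c oxidase). Ndufa4 (chr6:11900291-11907496, minus strand), a subunit of complex IV, had 164, 153 and 192 CPM in MeHg cerebella, against 153, 149 and 146 CPM in Control cerebella. Its values did not overlap only by a narrow margin between MeHg library 2 and Control library 1 (log2 fold change 0.19 ± 0.084, edgeR adjusted p = 0.21). It was 0.09 without MeHg library 3. Ndufa4l2 (chr10:127350836-127353023, plus strand), its paralog induced by low oxygen in many cells, had 2.23, 2.29 and 2.16 CPM in MeHg cerebella, against 0.913, 1.197 and 1.29 CPM in Control cerebella. These CPM rest on counts of 36, 35 and 32 in MeHg libraries, against 18, 24 and 18 in Control libraries. The groups were well apart, and the log2 fold change of 0.98 ± 0.26 was the highest among the nuclear members (edgeR adjusted p = 0.0773). Markers of mural cells and fibroblasts had a median log2 fold change of 0.40, with 8 of 10 positive. Their part in the Ndufa4l2 result was not tested.

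The assembly factors were closer to the centre of all genes. Of 8 genes 6 were positive and 2 negative, and the median log2 fold change was 0.12. All MeHg values lay above Control in 2 (25%), against 13.9% of all genes. At an unadjusted p under 0.05, 1 (12.5%) was higher, near the 11.8% of all genes. Mean log2 CPM over the 8 genes was 4.22 ± 0.03 in MeHg cerebella and 4.10 ± 0.05 in Control cerebella (SD, n = 3 each). Ndufaf8 (chr11:119989754-119991531, plus strand), the partner that stabilises Ndufaf5, had 9.71, 9.94 and 13.5 CPM in MeHg cerebella, against 8.37, 8.43 and 8.05 CPM in Control cerebella. MeHg library 3 stood above the others, and the groups did not overlap (log2 fold change 0.42 ± 0.16, edgeR adjusted p = 0.16). Without that library the log2 fold change was 0.25 (adjusted p = 0.405).

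Ndufaf5 (chr2:140012569-140045609, plus strand), which hydroxylates the core subunit Ndufs7 during assembly, had 26.6, 30.4 and 25.6 CPM in MeHg cerebella, against 25.9, 23.7 and 25.7 CPM in Control cerebella, with overlap. Ndufaf3 (chr9:108442736-108444633, minus strand), which acts early in building the ubiquinone module, had 28.9, 28.4 and 27.8 CPM in MeHg cerebella, against 27.3, 25.1 and 26.9 CPM in Control cerebella. Its groups were separate by a small step, with a log2 fold change of 0.10 ± 0.084 (edgeR adjusted p = 0.491). Ndufaf1, Ndufaf2, Ndufaf4, Ndufaf6 and Ndufaf7 overlapped between groups and had edgeR adjusted p-values of 0.536 to 0.975. Assembly factors with other names, 12 of 13 tested, had a median log2 fold change of 0.06, with 8 positive. Of them 1 (8.33%) had all MeHg values above Control, against 13.9% of all genes. The smallest p among these assembly factors belonged to Foxred1 (log2 fold change 0.16, edgeR adjusted p = 0.303) and Timmdc1 (0.14).

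The 7 mitochondrially encoded subunits form the proton-pumping core. All 7 had a positive log2 fold change, with a median of 0.29, but MeHg and Control values overlapped in 6 of them. As a mean log2 CPM over the 7 genes, the MeHg libraries stood at 9.30, 9.26 and 9.59, against 8.75, 9.28 and 8.93 in Control libraries. Control library 2 was higher than the other controls and lay among the MeHg libraries. The 7 genes took 1.32%, 1.26% and 1.55% of all counts in MeHg libraries, against 0.976%, 1.38% and 0.946% in Control libraries. The median was 0.53 without Control library 2 and 0.18 at the lowest when another library was left out.

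mt-Nd1 (MT:2751-3707, plus strand), the subunit next to the ubiquinone pocket, had 3798, 3641 and 4569 CPM in MeHg cerebella, against 2833, 3865 and 2597 CPM in Control cerebella. mt-Nd2 (MT:3914-4951, plus strand), one of the antiporter-like pumps, had 2972, 2727 and 3319 CPM in MeHg cerebella, against 2592, 3148 and 2303 CPM in Control cerebella. In both genes the value of Control library 2 exceeded 2 MeHg values, and the log2 fold changes were 0.37 ± 0.15 for mt-Nd1 (edgeR adjusted p = 0.185) and 0.17 ± 0.13 for mt-Nd2 (0.457). mt-Nd4 (MT:10167-11544, plus strand), another pump, had 2992, 2748 and 3519 CPM in MeHg cerebella, against 2314, 3037 and 2235 CPM in Control cerebella. mt-Nd5 (MT:11742-13565, plus strand), the pump at the far end, had 2519, 2760 and 2843 CPM in MeHg cerebella, against 1805, 3061 and 1947 CPM in Control cerebella. Control library 2 was above 2 MeHg libraries for mt-Nd4 and above all 3 for mt-Nd5, at log2 fold changes of 0.29 and 0.25 (edgeR adjusted p = 0.237 and 0.422). mt-Nd6 (MT:13552-14070), the complex I gene on the other strand, had 665, 674 and 793 CPM in MeHg cerebella, against 394, 790.0 and 467 CPM in Control cerebella. Control library 2 lay just under the highest MeHg library. The log2 fold change of mt-Nd6 was 0.37 ± 0.22 (edgeR adjusted p = 0.338). It was 0.72 without Control library 2, with an edgeR adjusted p of 0.0437, and mt-Nd6 was the only member called in that fit. The same fit called 1.29% of all genes. Without Control library 2 the log2 fold change was 0.56 for mt-Nd1, 0.29 for mt-Nd2, 0.44 for mt-Nd4 and 0.53 for mt-Nd5, with edgeR adjusted p-values of 0.0672, 0.186, 0.097 and 0.0524. The fit without both libraries numbered 2 called 10.3% of all genes. In that fit mt-Nd1 (0.63, edgeR adjusted p = 0.00968), mt-Nd2 (0.37, 0.042), mt-Nd4 (0.52, 0.0135), mt-Nd5 (0.52, 0.0115) and mt-Nd6 (0.77, 0.0056) were called higher in MeHg cerebella. Leaving out another library moved some of them the other way: mt-Nd5 was 0.12 and mt-Nd6 0.18 without Control library 1, and mt-Nd2 was 0.06 and mt-Nd5 0.15 without Control library 3. Bases 13552 to 13565 belong to both mt-Nd5 and mt-Nd6, and with no strand handling given, reads of the pair cannot be told apart there.

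**Figure D2:**
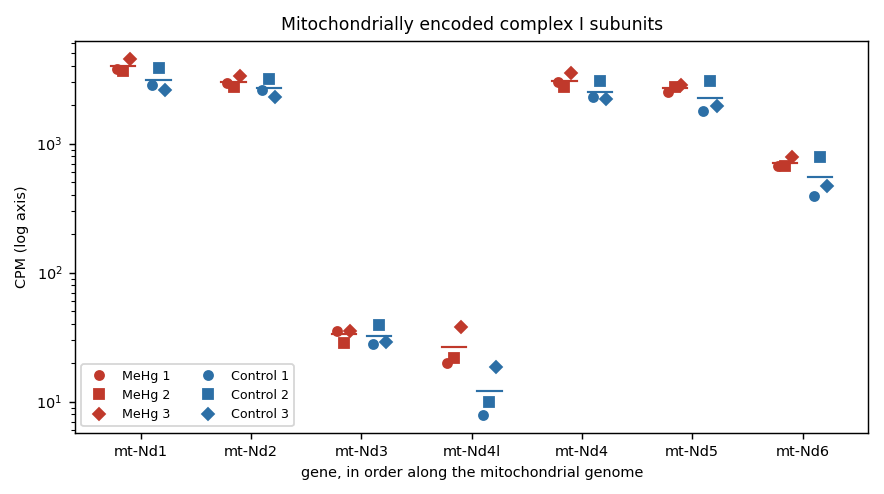
CPM of the 7 mitochondrially encoded complex I genes on a log axis, in their order along the mitochondrial genome, with MeHg left of Control in each gene. Each point is 1 library, its shape gives the library number, and bars are group means. Control library 2 (blue square) lies above at least 2 MeHg values for every gene except mt-Nd4l, which has all MeHg values (19.8 to 38.2 CPM) above all Control values (7.91 to 18.7 CPM).

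mt-Nd4l (MT:9877-10173, plus strand), the smallest of the mitochondrially encoded subunits, was the one without overlap. It had 19.8, 21.7 and 38.2 CPM in MeHg cerebella, against 7.91, 9.98 and 18.7 CPM in Control cerebella, from counts of 320, 332 and 566 in MeHg libraries, against 156, 200 and 260 in Control libraries. The values of both libraries numbered 3 were the highest of their groups, and the log2 fold change was 1.14 ± 0.34, the highest of all 54 members (edgeR adjusted p = 0.0913). Without MeHg library 3 it was 0.79 (adjusted p = 0.248), and without Control library 3 it was 1.57 (0.207). Per length, mt-Nd4l had 83.6 ± 32.2 FPKM in MeHg cerebella and 38.6 ± 18.1 FPKM in Control cerebella (SD, n = 3 each). By contrast mt-Nd1 had 3907 ± 509 FPKM in MeHg cerebella and 3041 ± 655 FPKM in Control cerebella. mt-Nd3 (MT:9459-9806, plus strand), a small subunit at the hinge of both arms, was also low, with 35.4, 28.6 and 35.5 CPM in MeHg cerebella, against 28.2, 39.3 and 29.1 CPM in Control cerebella, with overlap. mt-Nd4l and mt-Nd4 are read from the same RNA and their reading frames overlap. The junction is shown with the shared bases in capitals (MT:10146-10194 in GRCm39, plus strand).
mt-Nd4l end and mt-Nd4 start: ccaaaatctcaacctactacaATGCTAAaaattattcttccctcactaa

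Both mt-Nd3 and mt-Nd4l lie whole within a stretch that has a near-identical nuclear copy. Bases 6390 to 11042 of the mitochondrial genome align to 4654 bases of chromosome 1 (chr1:24650616-24655269 in GRCm39, minus strand) at 99.94% identity. This copy covers 100% of mt-Nd3 with 1 mismatch, 100% of mt-Nd4l with 0 mismatches and 63.6% of mt-Nd4 with 0 mismatches, and none of mt-Nd1, mt-Nd2, mt-Nd5 or mt-Nd6. A read inside mt-Nd4l therefore has an equal match on chromosome 1, as the first bases of the gene show (MT:9877-9936, plus strand, and chr1:24651722-24651781, minus strand, GRCm39).
mt-Nd4l: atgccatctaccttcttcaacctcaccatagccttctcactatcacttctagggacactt
Chromosome 1 copy: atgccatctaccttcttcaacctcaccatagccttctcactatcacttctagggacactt

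The copy is annotated as genes of its own, and these drew some reads. Gm10222, the copy of mt-Nd4l, had 3.46, 3.27 and 4.04 CPM in MeHg cerebella, against 2.59, 5.04 and 2.87 CPM in Control cerebella. Gm28438, the copy of mt-Nd3, had 3.22, 3.99 and 24.9 CPM in MeHg cerebella, against 13.3, 18.4 and 3.16 CPM in Control cerebella. Neither copy separated the groups, and Gm28438 varied more within each group than between them. How the authors placed reads with equal matches is not given in the sources used here, so mt-Nd3, mt-Nd4l and mt-Nd4 are uncertain. Without these 3 genes the median log2 fold change of the mitochondrially encoded subunits was 0.31. Among all 54 members 21 have a stretch of at least 150 bases at 95% identity or more elsewhere in the genome, 16 of the 47 nuclear genes and 5 of the 7 mitochondrial genes. Of the nuclear genes led with above, these include Ndufc1 (longest stretch 176 bases at 95.5%) and Ndufs6 (330 bases at 97.0%).

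Ndufa12, chosen after its values were seen, has such a stretch in common with a processed pseudogene. This accessory subunit of the matrix arm (chr10:94034582-94057305, plus strand) had 48.1, 25.7 and 30.7 CPM in MeHg cerebella, against 46.7, 22.7 and 23.2 CPM in Control cerebella. Ndufa12-ps, on chromosome 5, had 19.9, 37.0 and 39.5 CPM in MeHg cerebella, against 21.3, 28.0 and 28.5 CPM in Control cerebella. In both libraries numbered 1 Ndufa12 was high and its pseudogene low, so that Ndufa12 took 70.7% of the pair's sum in MeHg library 1 and 68.7% in Control library 1. In the other libraries it took 41% and 43.7% in MeHg cerebella and 44.8% and 44.9% in Control cerebella. The sum was 68.0, 62.7 and 70.2 CPM in MeHg cerebella, against 68.0, 50.7 and 51.8 CPM in Control cerebella. How reads were divided between gene and pseudogene was not tested. The log2 fold change of Ndufa12 was 0.17 ± 0.31, an SE above that of every nuclear core subunit (edgeR adjusted p = 0.774). The highest-scoring single alignment of the mRNA and the pseudogene spanned 221 bases at 99.5% identity. Another match of the mRNA, 274 bases at 97.4% identity, lay at chr5:130217456-130217729 and began within the pseudogene. A stretch of the mRNA (GENCODE vM39) and of the pseudogene (chr5:130217275-130217334 in GRCm39, plus strand) is shown with the single differing base in capitals.
Ndufa12: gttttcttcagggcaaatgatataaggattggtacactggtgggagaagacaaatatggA
Ndufa12-ps: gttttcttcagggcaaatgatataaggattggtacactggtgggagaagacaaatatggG

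**Figure D3:**
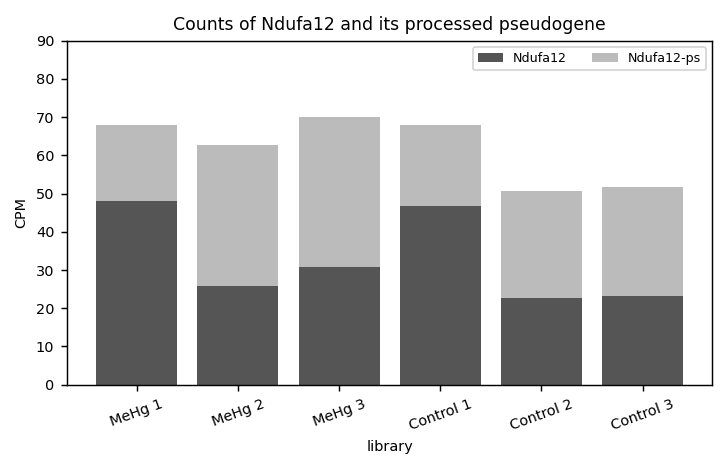
Stacked bars give CPM of Ndufa12 (dark) and its processed pseudogene (light) in each library, MeHg libraries left of Control libraries. Ndufa12 makes up 70.7% of the bar in MeHg library 1 and 68.7% in Control library 1, against 41% to 44.9% in the other libraries.

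Nuclear complex I genes are short, and fold changes in these libraries ran with gene length. The median gene length was 1495 bases for the nuclear subunits and 4105 bases for all genes tested. All genes were split by length into 5 bins of nearly equal size. In the shortest bin (56 to 2081 bases) the median log2 fold change was 0.10 and 17.9% had all MeHg values above Control, while in the longest bin (7253 to 123179 bases) these were -0.10 and 7.44%. The shortest bin held 25 of the 39 subunits, with a median of 0.24, 25 positive and 17 without overlap, and the next bin held 9, with a median of 0.13. Across the 39 subunits the log2 fold change ran against log2 gene length with a Pearson r of -0.512 and a Spearman rho of -0.616. These are descriptions over genes that share the same 6 libraries and are not independent. With a length offset fitted in each library, the nuclear median was 0.10, with 34 of 39 positive, and the assembly factor median 0.025. That fit called 0 of all genes, and its share of members at an unadjusted p under 0.05 was 20.4%, close to the 21.3% of all genes. With GC content added to the offset, an alternative chosen after the data were seen, the nuclear median was 0.11.

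**Figure D4:**
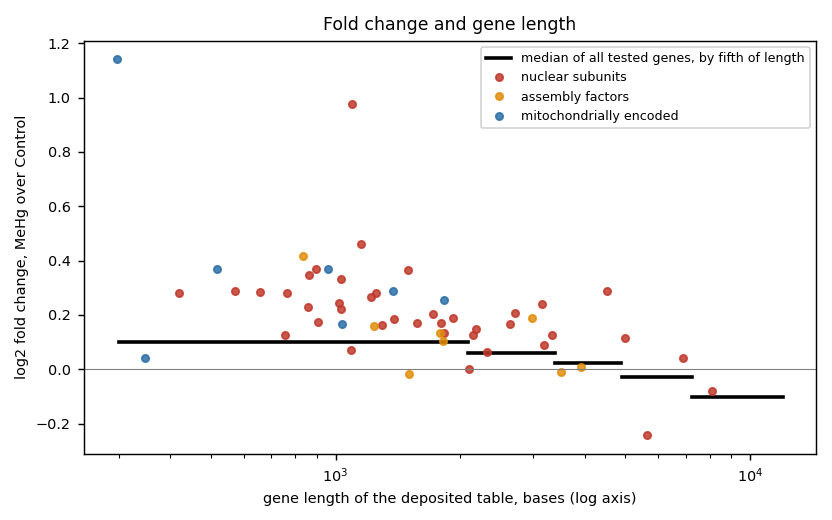
Log2 fold change, MeHg over Control, of each complex I gene against the gene length of the deposited table in bases (log axis). Horizontal bars are the medians of all tested genes in 5 length bins, with the outermost bars shortened to fit the axis. Nuclear subunits in the shortest bin have a median of 0.24, above the 0.10 of all genes of that length, and the bars step down to -0.10 in the longest bin.

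Complex III, complex IV and the ATP synthase had medians near that of the nuclear complex I subunits, and complex II had a lower one. Complex IV had 10 of 10 nuclear genes positive, 7 without overlap and a median log2 fold change of 0.22, with Cox5b at 126 ± 11.1 CPM in MeHg cerebella and 101 ± 5.98 CPM in Control cerebella (SD, n = 3 each; edgeR adjusted p = 0.0602). The ATP synthase had 17 of 17 positive, 14 without overlap and a median of 0.22, led by Atp5d (log2 fold change 0.26, edgeR adjusted p = 0.0571). Complex III had 8 of 9 positive, 4 without overlap and a median of 0.20, and complex II 4 of 4 positive, 1 without overlap and a median of 0.05. Of the 6 other mitochondrially encoded protein genes 4 were positive, 0 were without overlap and the median was 0.22. Their single log2 fold changes lay between -0.55 and 0.73. The chromosome 1 copy covers 100% of mt-Co2, mt-Atp8, mt-Atp6 and mt-Co3 with 0 mismatches, and 31.3% of mt-Co1, so these values are uncertain too. No gene of the complexes in this paragraph passed the threshold, and no test compared complex I with its neighbours in the chain. Other mitochondrial proteins had 12 of 14 positive, 8 without overlap and a median of 0.10. Over all genes tested 13.9% had all MeHg values above all Control values.

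Of 20 genes that govern mitochondrial transcription, RNA and biogenesis 14 were negative, with a median log2 fold change of -0.06. Among them 1 was called: Ppargc1b, a coactivator of mitochondrial biogenesis, fell to 16.4, 21.1 and 13.8 CPM in MeHg cerebella, against 28.4, 26.9 and 29.2 CPM in Control cerebella. That call was lost when MeHg library 3, Control library 1 or Control library 3 was left out, as those fits called 0 of all genes. The fit without MeHg library 1 called only 2 of 17081 genes. Every MeHg value of Ppargc1b lay below every Control value (log2 fold change -0.72 ± 0.15, edgeR adjusted p = 0.046). Esrra, the receptor that it coactivates, had 117 ± 4.77 CPM in MeHg cerebella and 101 ± 2.96 CPM in Control cerebella (SD, n = 3 each; edgeR adjusted p = 0.0799).

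Markers of cell types differed between the same libraries. Over all genes tested 0.575% were called higher and 1.79% lower in MeHg cerebella. Of the 15 granule cell markers 8 were called lower and all 15 were negative, with a median log2 fold change of -0.40, and their mean log2 CPM was 8.49 to 8.69 in MeHg libraries and 8.93 to 9.05 in Control libraries. Choroid plexus markers had 12 of 12 positive, 0 called and a median of 1.88, with scores of 4.51 to 6.37 in MeHg libraries and 0.20 to 4.88 in Control libraries. Ependymal markers had 9 of 9 positive, 2 called and a median of 1.41. The ciliogenesis factor Foxj1 was called higher, at 21.6, 23.2 and 33.2 CPM in MeHg cerebella, against 10.1, 13.4 and 11.1 CPM in Control cerebella (edgeR adjusted p = 0.0431). Midbrain and brainstem markers, 6 of 10 tested, were all positive with a median of 1.85 and the highest score, 3.97, in MeHg library 2. Purkinje cell markers had 8 of 10 negative, 1 called lower and a median of -0.22, and astrocyte markers 5 of 10 and -0.02. Oligodendrocyte, microglial and endothelial markers had 10 of 10 positive each, with medians of 0.31, 0.27 and 0.27 and 1 endothelial gene called higher, and red blood cell markers 5 of 6 positive and 0.45. The calls in these lists were lost when MeHg library 3, Control library 1 or Control library 3 was left out. Without MeHg library 1 only 2 of all genes were called, so most of these calls were lost there too. MeHg library 3, with the highest choroid plexus and ependymal scores, was also the highest library for 28 of the 39 nuclear complex I genes. The part of these cell types in the complex I values was not tested.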

How the data were processed

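Bulk RNA was sequenced from 6 cerebella, 3 MeHg and 3 Control, as read pairs of 150 bases on a NovaSeq instrument, per the labels' protocols. The deposited count table gives unnormalised whole-number counts, with the authors' gene length beside them. A second deposited table holds FPKM values that the authors made from counts, gene length and a library total. That total lies 8.1% to 9.0% above the table's own in MeHg libraries and 4.0% to 5.4% above it in Control libraries, so FPKM was used only for levels and as an alternative. The submitters' processing notes name mm39 and DESeq2. The sources used here do not give the aligner, counter, annotation or strand handling. Total counts of 14116088 to 20303833 per library set the counting precision, and the PCR reads carry no molecular identifiers. The SDs, SEs and p-values rest on the spread between libraries.

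With edgeR 4.0.16 (R 4.3.3), genes were filtered with filterByExpr, scaled by TMM and compared by quasi-likelihood F tests in a model of exposure alone. The Benjamini-Hochberg adjustment ran over all 16859 genes tested, with a threshold of 0.05. The SE is the absolute log2 fold change divided by the square root of F. The fit was checked on simulated counts. Scores of a list average the log2 CPM (prior count 2) over its genes. Lists are described by counts and medians and were given no test. Library pairs of a group differed by 7.105 to 17.78 chi-square units per degree of freedom, so none was a second copy of another.

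The members, the gene lists and the cell type markers were chosen with earlier results of these data known. Named genes are the 7 nuclear core and 7 mt-Nd genes, the 8 accessory subunits with the smallest p, the 2 highest and 2 lowest accessory fold changes, the 3 Ndufaf genes with the smallest p, Ndufa4, Ndufa4l2, and from each pathway list up to 2 with the smallest p. Ndufa12 was named outside this rule, and 1 gene that the rule names is not reported here. Gene copies were found by aligning the members' transcripts (GENCODE vM39) and mitochondrial genes to GRCm39, the same assembly as mm39. Promoter sequences are from RefSeq, build GRCm38.p6. Alternatives were upper-quartile scaling, size factors or the test of DESeq2 1.42.0, no filter, a filter at a mean of 1 CPM, limma-voom (limma 3.58.1), limma on log2(FPKM + 1) and log2(FPKM + 0.1), a replicate block, labelled sex as a term, totals without mitochondrial genes, a gene length offset, and leaving out each library or both numbered 2. Added after the data were seen were an offset for length and GC content (GC known for 16800 genes and 54 of 54 members) and the mt-Nd median without the 3 copied genes.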

Additional observations from a re-analysis of the deposited data

How the results depend on the processing

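Over the alternatives tried, the number of complex I genes called was 0 in most. It was 12 with no filter on low counts, where 7.38% of all genes were called, and 5 with the DESeq2 test (7.86% of all genes). Without both libraries numbered 2 it was 11 (10.3% of all genes). When each library was left out in turn it was 0 to 6 (0% to 6.33% of all genes). The same replicate numbers in both groups did not pair the libraries: deviations of same-numbered libraries correlated at 0.187, 0.346 and -0.236, and not every library correlated best with its own number. With the replicate block 1 complex I gene was called, mt-Nd4l (1.85% of the members, against 3.84% of all genes). With labelled sex as a term 0 were called, against 3.61% of all genes. That term took Control library 2 as female, the label that its Xist and Ddx3y contradict. Without a single library the nuclear median of 0.19 ranged between 0.14 and 0.25, the assembly factor median of 0.12 between 0.061 and 0.15, and the mt-Nd median of 0.29 between 0.18 and 0.53. The mt-Nd median was 0.52 without both libraries numbered 2 and 0.17 with the gene length offset. With that offset the nuclear median was 0.10 and the assembly factor median 0.025, and with the length and GC offset these were 0.11 and 0.064. The direction of a few small log2 fold changes turned, and the cause was not tested. Ndufa9 was -0.00040 with no filter, -0.0066 and -0.0067 on log2 FPKM with 1 or 0.1 added, -0.079 with the length offset, -0.055 with length and GC, and -0.011 to 0.030 without a single library. Under the length offset mt-Nd3 was -0.020, and under length and GC Ndufs1 was 0.015 and Ndufaf3 -0.027. Without a single library mt-Nd3 ranged between -0.041 and 0.21. Limits are that no batch, dam or litter is labelled and that the handling of reads with several equal matches is not given in these sources. Members at an unadjusted p under 0.05 were 32 with upper-quartile scaling (59.3%, against 24.4% of all genes). With TMM scaling they were 23 (42.6%, against 24.5% of all genes).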
